A study of Mus musculus with 30 samples.

Results

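TFH2 cells sorted through 3 CXCR5 gates were compared with TH2 cells in 10 of the 22 QuantSeq libraries of a 30-library mouse series. QuantSeq reads the 3' ends of polyadenylated transcripts, so a gene is represented by counts from 1 end of its transcripts. The libraries were chosen by their labels alone. On one side were all 6 libraries titled TFH2, with 2 each from the CXCR5hi, CXCR5int and CXCR5lo gates of CD4+CD45.2+PD1+ cells. On the other side were the 4 libraries titled TH2, sorted as CD4+hCD2+ cells. Both sides came from spleens of 8-week-old C57BL/6 mice, and both carry the genotype label OTII Tg IL-4BacTg x OTII Tg. OTII is a transgenic T cell receptor for an ovalbumin peptide. The labels do not say what IL-4BacTg carries or what hCD2 reports, and they name no immunization, animal, replicate number or batch. Libraries are numbered here in the order of deposit, which only names them. P values therefore reflect only how far libraries vary, part of which may be technical, with the spread estimated over all 22 QuantSeq libraries. In the test over all gates, differences between the gates also count as spread. Whether the 3 gates were cut from the same spleens is not stated. The 2 sides also differ in the markers they were sorted by, so cell state and sort gate cannot be told apart.

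T follicular helper (TFH) cells enter the B cell follicles of the spleen through CXCR5, a receptor for the chemokine CXCL13, and help B cells through CD40 ligand, IL-21 and IL-4. BCL6 is the transcriptional repressor that TFH cells depend on, and it opposes BLIMP1, the product of Prdm1. TH2 cells are the helper cells of type 2 immunity, defined by the transcription factor GATA3, by the IL-4 receptor and by the cytokines IL-4, IL-5 and IL-13. TFH2 is the labels' name for the CXCR5-sorted cells of this genotype.

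The labelled identities were checked first. Cd3d, Cd3e, Cd4, Trac and the other CD4 T cell markers were present in all 10 libraries, with a summed counts-per-million (CPM) level of 8943 to 12310 in TFH2 and 6538 to 8259 in TH2. Cxcr5, Bcl6, Tox2 and Il21 had counts in all 6 TFH2 libraries. In the libraries labelled TH2, Gata3 stood at 218 to 328 CPM and Il4ra at 1488 to 2272, but the cytokines that define TH2 cells were near 0. Il5 had no count in them, Il13 had 12 counts in all 4 together, and the 40 counts of Il4 all came from TH2 replicate 3. Il7r, a gene of naive and recirculating cells, was at 300.5 to 757 CPM in these libraries. They are called TH2 below because the labels do so.

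TFH2 libraries held 1834612 to 4442404 counts and TH2 libraries 1850033 to 3016527. Some measurements set libraries apart before any gene was tested. Ribosomal protein genes took 7.27 to 9.69% of counts in TFH2 and 14.8 to 15.5% in TH2. Markers of macrophages and other myeloid cells summed to 257.6 to 1338 CPM in TFH2 and to 0 to 7.18 in TH2, and erythroid markers to 413.2 to 1590 and 0 to 39.61. B cell markers summed to 180.3 to 837.5 and 60.63 to 147.5 CPM, plasma cell markers to 24.73 to 157.3 and 7.579 to 65.49, and CD8 T cell and NK cell markers to 1.017 to 27.48 and 0 to 27.06. The defining genes Ms4a1, Mzb1, Alas2, Cd8a, Ncr1 and Klra8 were at 0 counts in all 10 libraries. The mitochondrial genes mt-Co2, mt-Co3, mt-Atp6 and mt-Atp8 were at 0 in all 10 as well. A gene with no count in any library, here or below, is therefore not shown to be absent from the cells. The sex-linked genes Xist and Ddx3y parted the TH2 libraries, with Xist at 339 and 383 CPM in TH2 replicates 1 and 2 and at 0.684 and 0 in replicates 3 and 4. Ddx3y was at 0.392 and 0 CPM in the first pair, 101 and 28.7 in the second, and 48.8 to 98.9 in TFH2, where Xist was at 0 to 20.9. In these genes TFH2 lay near TH2 replicates 3 and 4 and away from 1 and 2. The sex of the animals may thus differ between the sides, and its part in other genes was not tested. Top2a, a gene of dividing cells, was at 481, 543, 37.3 and 15.7 CPM in TH2 replicates 1, 2, 3 and 4. Genes were therefore also compared with each TH2 pair alone. In such bulk libraries, fewer cells of a type and less RNA per cell cannot be told apart.

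**Figure D1:**
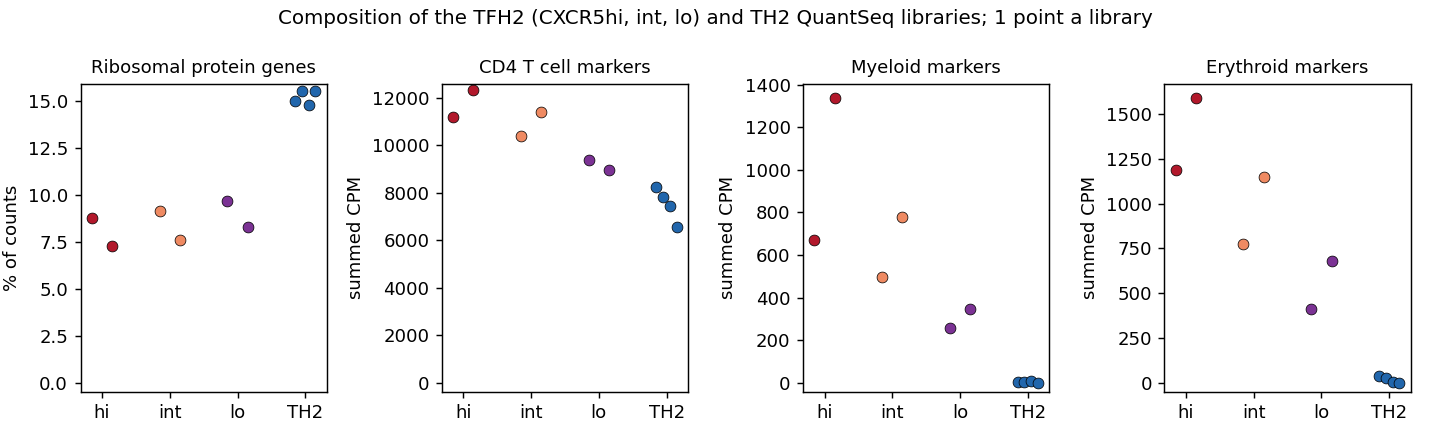
Each panel plots 1 point for each of the 6 TFH2 libraries, by CXCR5 gate, and the 4 TH2 libraries. The y axes give the percent of counts in ribosomal protein genes and the summed CPM of CD4 T cell, myeloid and erythroid marker genes. Ribosomal protein genes lie at 7.27 to 9.69% in TFH2 and 14.8 to 15.5% in TH2, and myeloid and erythroid sums are far above the TH2 values in every TFH2 library.

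Between the 6 TFH2 and the 4 TH2 libraries, 560 of 14383 genes tested (3.89%) passed an adjusted p of 0.05 in edgeR's quasi-likelihood test, 314 (2.18%) higher and 246 (1.71%) lower in TFH2. The lists described below were follicular helper, cytokine, receptor, trafficking, activation, and metabolic genes and markers of other cell types. Their counts of called members stand against these shares of 2.18% higher and 1.71% lower over all genes tested. Of the TFH list, 12 of 20 tested members rose in TFH2 and none fell, and of the ribosomal protein list 53 of 77 fell and none rose. Immediate early genes rose at 11 of 29 and fell at 1, and naive and recirculating genes fell at 6 of 20 and rose at 3. The TH2 list had no member that rose and 2 of 17 that fell, although its median log2 ratio was 1.05, and 3 members rose with DESeq2 or with only the 10 libraries in the fit. Over all genes tested the median log2 ratio was 0.09. For 821 genes (5.71%), 431 higher (3%) and 390 lower (2.71%), no TFH2 library overlapped a TH2 library, and 440 of the 560 called genes were among them. Against TH2 replicates 3 and 4 alone, 413 genes passed, and against replicates 1 and 2 alone 340, of which 189 were higher. DESeq2 called 874 genes, 546 higher and 328 lower.

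**Figure D2:**
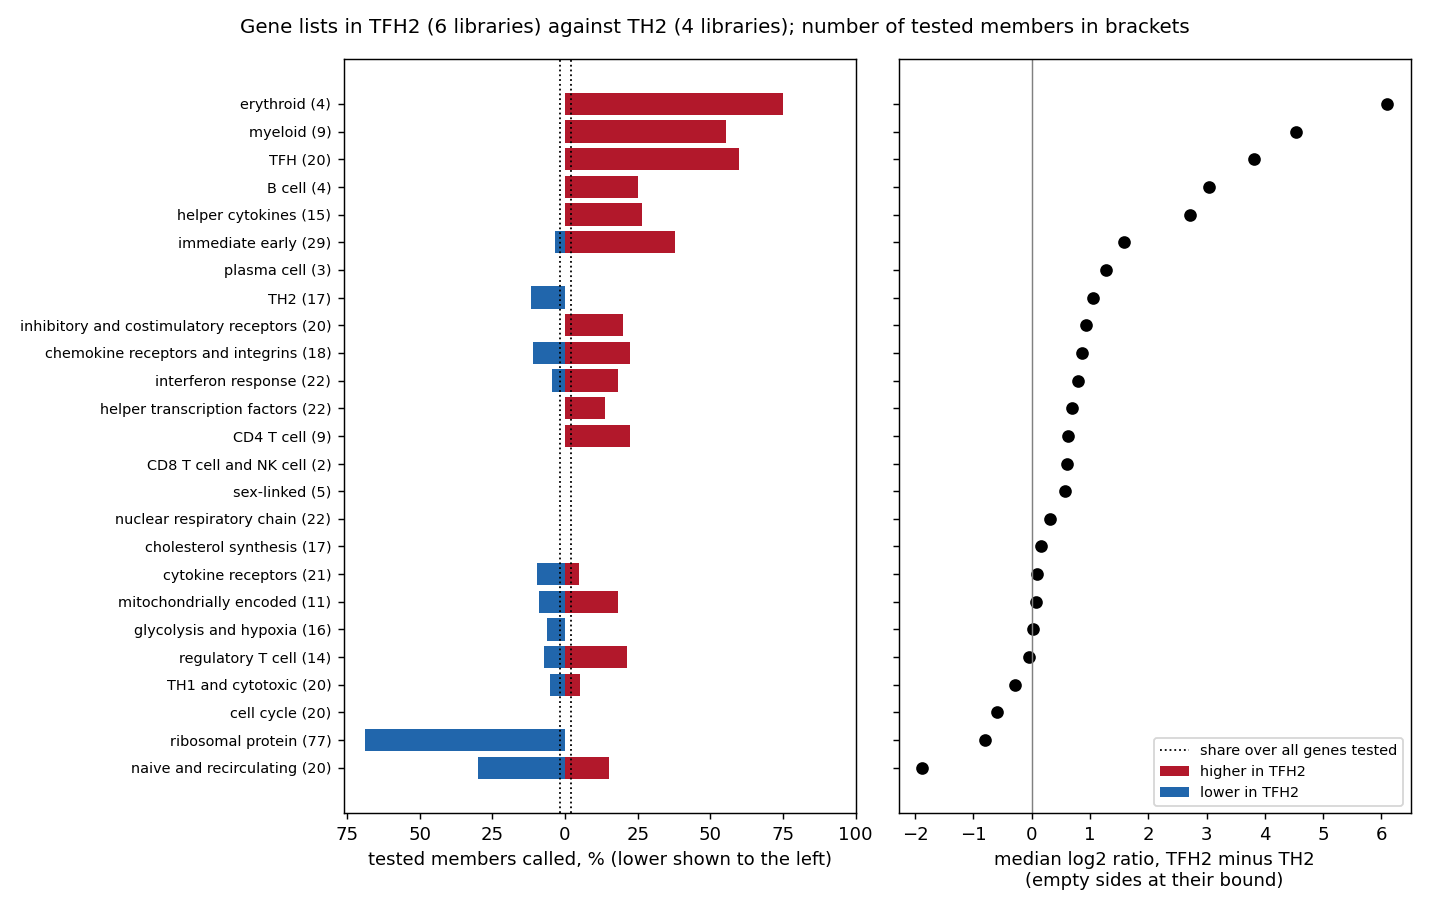
The left panel shows, for each gene list, the percent of tested members called higher (red, to the right) or lower (blue, to the left) in TFH2 than in TH2, with the share over all genes tested as dotted lines. The right panel gives the median log2 ratio of the tested members, with genes that had no count on 1 side at their bound. The erythroid, myeloid and TFH lists have the highest medians, at 6.10, 4.53 and 3.81, and the naive and recirculating list the lowest, at -1.88.

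Of 20 follicular helper genes, 12 rose in TFH2 and none fell, several with almost no count in TH2. Cxcr5 and Pdcd1 were part of the sort, so their levels only check it. Cxcr5 had 118 and 135 CPM in CXCR5hi, 43.6 and 50.8 in CXCR5int, 33.7 and 33.1 in CXCR5lo, and 0 in all 4 TH2 libraries. Pdcd1, which encodes PD-1, had 164 and 206 CPM in CXCR5hi, 112 and 122 in CXCR5int, 0 and 62.6 in CXCR5lo, and 0.392, 0, 0.342 and 0.541 in TH2. Every TFH2 library was above TH2 for Cxcr5, while 1 of the CXCR5lo libraries had no count of Pdcd1.

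Of the genes that were not sorted on, Bcl6 had 288 and 273 CPM in CXCR5hi, 106 and 78.1 in CXCR5int, 31.9 and 29.0 in CXCR5lo, and 0.392, 13.3, 2.05 and 5.95 in TH2. All 6 TFH2 libraries lay above all 4 TH2 libraries, with the highest values in the CXCR5hi gate (log2 ratio 4.62 ± 0.76 SE, adjusted p = 5.17e-05). Tox2, a DNA-binding protein of the TOX family that TFH cells express, had 842 and 868 CPM in CXCR5hi, 494 and 601 in CXCR5int, 125 and 190.2 in CXCR5lo, and 0, 0, 0.684 and 0 in TH2. With only 2 counts in TH2, the ratio of pooled counts was 2750-fold, with a 95% counting interval of 761 to 22700 (adjusted p = 7.44e-06). Maf, which encodes a transcription factor that activates Il4 and Il21, had 3458 and 2552 CPM in CXCR5hi, 2808 and 2619.7 in CXCR5int, 1900.4 and 2422 in CXCR5lo, and 1209, 1496, 919.7 and 809.9 in TH2. Its groups did not overlap, although TH2 cells carried it at a substantial level (log2 ratio 1.24 ± 0.21 SE, adjusted p = 1.15e-04). Sostdc1, a secreted antagonist of BMP and WNT ligands found in TFH cells, had 392 and 267 CPM in CXCR5hi, 145 and 155 in CXCR5int, 69.0 and 7.63 in CXCR5lo, and 0, 0.341, 0.342 and 0 in TH2. Its 2 counts in TH2 put the ratio at 894-fold, with a 95% counting interval of 247 to 7380 (adjusted p = 8.74e-11). Cebpa, a transcription factor gene, ranged over 6.61 to 75.1 CPM in TFH2 and 0 in all 4 TH2 libraries, so it was at least 38.3-fold higher (adjusted p = 2.34e-06).

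Sh2d1a, which encodes the SLAM adaptor SAP that TFH cells need for lasting contact with B cells, ranged over 17.8 to 149 CPM in TFH2 and 1.03 to 16.8 in TH2 (log2 ratio 3.07 ± 0.74 SE, adjusted p = 0.00492). Pou2af1, the gene of the coactivator OCA-B, ranged over 14.1 to 75.6 CPM in TFH2 and 0 to 3.07 in TH2 (log2 ratio 5.13 ± 1.14 SE, adjusted p = 0.00154), and Cd200 over 37.6 to 158 CPM in TFH2 and 0 to 20.8 in TH2 (log2 ratio 3.85 ± 0.84 SE, adjusted p = 0.00651). Groups did not overlap in any of these 3, but Sh2d1a and Pou2af1 missed the threshold against TH2 replicates 1 and 2 alone (adjusted p = 0.0611 and 0.0637). Tox, at 65.1 to 336 CPM in TFH2 and 0 to 36.8 in TH2, and Btla, at 49.9 to 303 CPM in TFH2 and 0 to 38.8 in TH2, missed the threshold (adjusted p = 0.084 and 0.0543) although their groups did not overlap. Tox passed without TH2 replicate 2 (adjusted p = 0.0245) and Btla without CXCR5lo replicate 2 or TH2 replicate 2 (adjusted p = 5.91e-05 to 0.0467). Both passed when the spread was estimated without the robust option (adjusted p = 1.71e-04 and 1.37e-04), an alternative chosen after seeing the data. Of 23 alternatives in all, Tox passed in 5 and Btla in 7. Icos, the costimulatory receptor that sustains TFH cells, had 316 and 363 CPM in CXCR5hi, 223 and 403 in CXCR5int, 236 and 337 in CXCR5lo, and 364, 167, 174 and 128 in TH2. TH2 replicate 1 lay within the TFH2 range, and the difference did not pass (log2 ratio 0.59 ± 0.26 SE, adjusted p = 0.206), whereas it did without TH2 replicate 1 (adjusted p = 0.0227). The median log2 ratio of the list was 4.23 as fitted and 3.81 with genes absent from TH2 at their bound. Its count of higher members was 9 to 16 over all alternatives, the lowest against TH2 replicates 1 and 2.

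**Figure D3:**
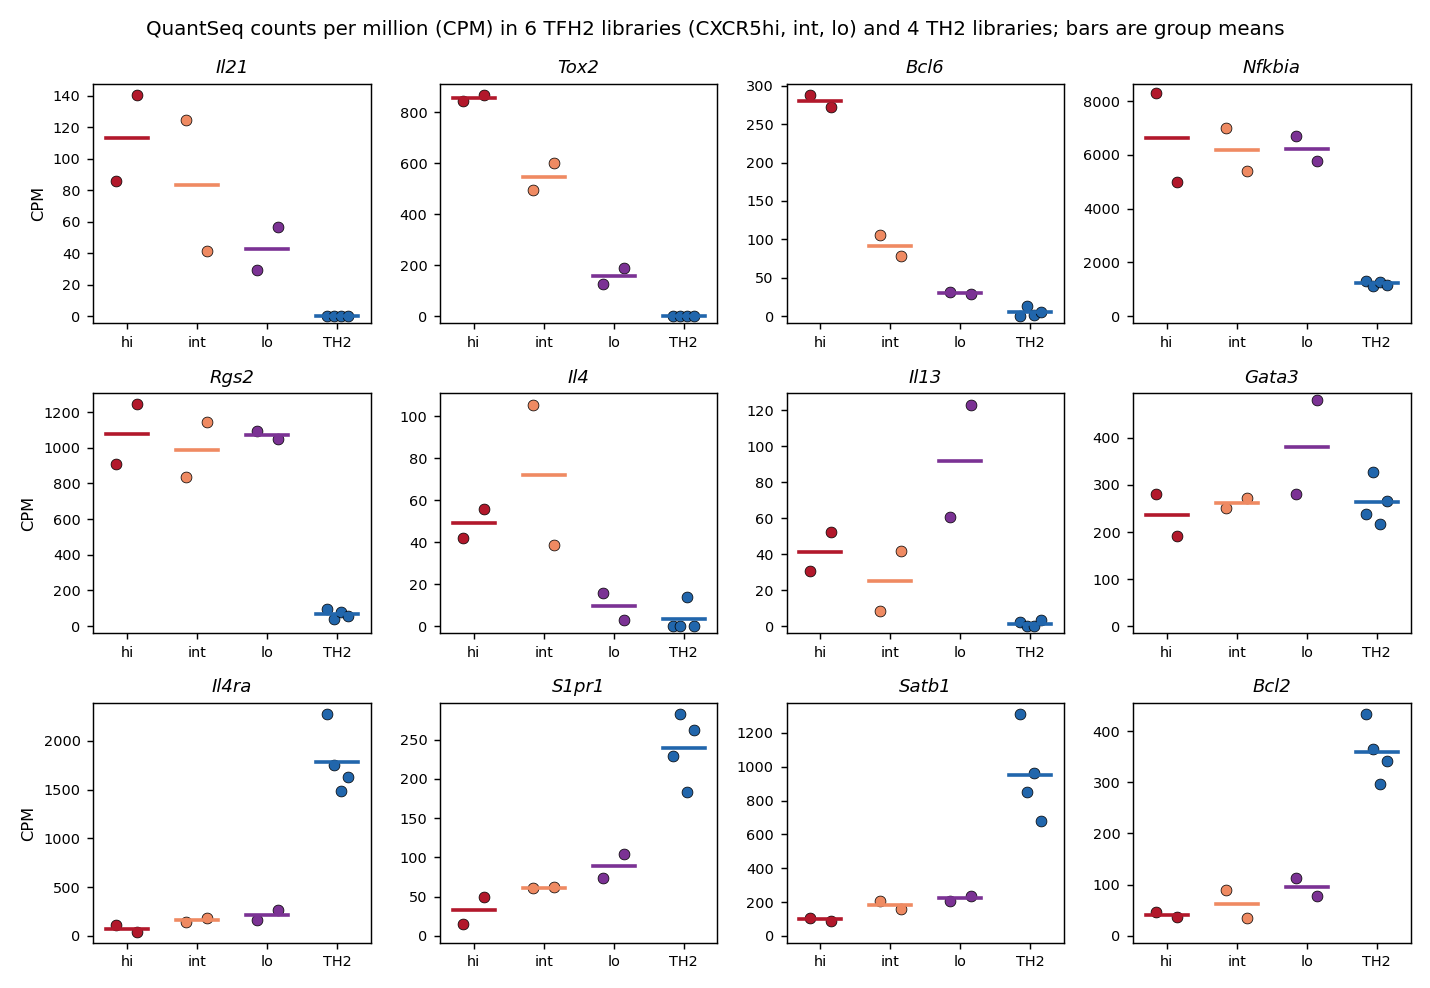
CPM of 12 genes in each of the 6 TFH2 libraries, by CXCR5 gate, and the 4 TH2 libraries, with bars at group means and a linear y axis for each gene. Tox2 and Bcl6 lie highest in the CXCR5hi gate, Nfkbia and Rgs2 overlap among the 3 gates, and Il4ra, S1pr1, Satb1 and Bcl2 lie above every TFH2 library in all TH2 libraries. Rgs2 and Bcl2 were chosen after their values were seen.

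Of 15 tested helper cytokine and ligand genes, 4 rose in TFH2 and none fell, all 4 of them known from B cell help or T cell contact. Il21 had 85.8 and 141 CPM in CXCR5hi, 125 and 41.5 in CXCR5int, 29.2 and 56.5 in CXCR5lo, and 0 in all 4 TH2 libraries. It was present in every TFH2 library and in no TH2 library, and was at least 65.8-fold higher (adjusted p = 1.91e-09). Cd40lg, the ligand through which helper cells activate B cells, had 279 and 186 CPM in CXCR5hi, 210.2 and 281 in CXCR5int, 237 and 206 in CXCR5lo, and 37.3, 51.8, 33.2 and 51.4 in TH2. The lowest TFH2 library was above the highest TH2 library (log2 ratio 2.42 ± 0.35 SE, adjusted p = 4.29e-07). Tnfsf8, which encodes CD30 ligand, ranged over 415 to 657 CPM in TFH2 and 69.8 to 97.4 in TH2 (log2 ratio 2.71 ± 0.30 SE, adjusted p = 2.70e-10). Tnfsf11, the gene of RANK ligand, ranged over 15.5 to 34.0 CPM in TFH2 and 0 in all 4 TH2 libraries and was at least 20.6-fold higher (adjusted p = 0.00603). The median log2 ratio of the list was 2.71.

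The type 2 cytokines themselves did not pass the test. Il4 had 41.9 and 55.9 CPM in CXCR5hi, 106 and 38.4 in CXCR5int, 15.8 and 3.05 in CXCR5lo, and 0, 0, 13.7 and 0 in TH2. In 5 of the 6 TFH2 libraries Il4 was above every TH2 library, and in CXCR5lo replicate 2 it was not (log2 ratio 3.64 ± 1.77 SE, adjusted p = 0.251). It passed without TH2 replicate 3 (adjusted p = 0.026), the only TH2 library with a count of Il4. In all, Il4 passed in 2 of 23 alternatives. Il13 had 30.5 and 52.3 CPM in CXCR5hi, 8.39 and 41.5 in CXCR5int, 60.8 and 123 in CXCR5lo, and 2.35, 0, 0 and 3.25 in TH2. The groups did not overlap, yet the spread left it uncalled (log2 ratio 5.24 ± 1.83 SE, adjusted p = 0.105). It kept that side of the threshold with each library left out, and passed with DESeq2 (adjusted p = 0.0257), with no filter on low counts (adjusted p = 0.0465) and with only the 10 libraries in the fit (adjusted p = 3.89e-04). In all, Il13 passed in 4 of 23 alternatives. Il5 had 0 and 0 CPM in CXCR5hi, 2.00 and 6.11 in CXCR5int, 24.4 and 67.1 in CXCR5lo, and 0 in all 4 TH2 libraries. Its counts came from the CXCR5int and CXCR5lo gates (adjusted p = 0.131), and it passed with only the 10 libraries in the fit (adjusted p = 0.0414). Il10 had no count in TFH2 and 107 counts in TH2 replicate 2 (adjusted p = 0.112).

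Regulators and receptors of the TH2 and effector programs differed in direction. Gata3 had 280.2 and 191 CPM in CXCR5hi, 252 and 272 in CXCR5int, 281 and 480.2 in CXCR5lo, and 239, 328, 218 and 266 in TH2. The sides overlapped and the test was not passed (log2 ratio 0.15 ± 0.30 SE, adjusted p = 0.907), and the sign turned without CXCR5lo replicate 2 (log2 ratio -0.04). Il4ra, the receptor chain shared by IL-4 and IL-13, had 107 and 43.1 CPM in CXCR5hi, 146 and 179 in CXCR5int, 166 and 261 in CXCR5lo, and 2272, 1750.5, 1488 and 1632 in TH2. Every TFH2 library was below every TH2 library, and the log2 ratio was -3.57 ± 0.44 SE (adjusted p = 6.77e-05). Ecm1, an extracellular matrix protein gene of the TH2 list, ranged over 0 to 10.2 CPM in TFH2 and 38.0 to 305 in TH2 and also fell (log2 ratio -5.51 ± 1.37 SE, adjusted p = 0.028), although not without CXCR5lo replicate 1 (adjusted p = 0.0688). Prdm1 had 0 and 0 CPM in CXCR5hi, 9.19 and 0 in CXCR5int, 4.81 and 19.3 in CXCR5lo, and 79.6, 47.7, 30.8 and 27.6 in TH2. The sides did not overlap, but the difference missed the threshold (log2 ratio -3.07 ± 1.44 SE, adjusted p = 0.237), and as a mean of log gate means it passed (adjusted p = 0.0451). Of 23 alternatives Prdm1 passed in 2, that average among them.

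Among the other helper transcription factors, 3 of 22 rose and none fell. Nfatc1, a calcineurin-dependent factor induced by T cell receptor signalling, had 387 and 409.7 CPM in CXCR5hi, 492 and 660.1 in CXCR5int, 481 and 313 in CXCR5lo, and 18.0, 63.4, 69.1 and 96.9 in TH2. Irf8 ranged over 29.2 to 111 CPM in TFH2 and 0 to 13.3 in TH2. Their log2 ratios were 2.89 ± 0.49 (adjusted p = 0.00102) and 3.93 ± 1.01 (adjusted p = 0.00963). Against TH2 replicates 1 and 2 alone Irf8 missed the threshold (adjusted p = 0.181). Tcf7, which encodes TCF-1 and acts early in TFH commitment, had 351 and 641 CPM in CXCR5hi, 438 and 580.5 in CXCR5int, 344 and 250.3 in CXCR5lo, and 249, 275, 246 and 159 in TH2. It was higher in TFH2 (log2 ratio 0.90 ± 0.26 SE, adjusted p = 0.0232), and lost the call without CXCR5hi replicate 2, CXCR5int replicate 2 or TH2 replicate 3 or 4 (adjusted p = 0.0542 to 0.141).

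Inhibitory and costimulatory receptor genes rose in TFH2 at 4 of 20 tested members, Pdcd1 among them, and none fell. Cd160, a receptor for the TNF receptor family member HVEM, had 189.5 and 249 CPM in CXCR5hi, 169.9 and 139.9 in CXCR5int, 41.9 and 54.9 in CXCR5lo, and 0.392, 0, 0.342 and 0 in TH2. TH2 held 2 counts of it in all, and the ratio of pooled counts was 733-fold, with a 95% counting interval of 203 to 6050 (adjusted p = 1.84e-13). Cd28, the main costimulatory receptor of T cells, had 457 and 557 CPM in CXCR5hi, 520.0 and 437 in CXCR5int, 542 and 449 in CXCR5lo, and 391, 249, 299.5 and 211 in TH2. The groups did not overlap, but the difference was small (log2 ratio 0.78 ± 0.23 SE, adjusted p = 0.0276), and lost the call without CXCR5hi replicate 2, CXCR5int replicate 1 or TH2 replicate 2, 3 or 4 (adjusted p = 0.0517 to 0.155).

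Of 20 genes of naive and recirculating T cells, 6 fell and 3 rose in TFH2. Satb1, a chromatin organizer, had 105 and 88.6 CPM in CXCR5hi, 205 and 161 in CXCR5int, 206 and 239 in CXCR5lo, and 1314, 852, 961 and 677 in TH2. Each TFH2 library was below each TH2 library (log2 ratio -2.51 ± 0.24 SE, adjusted p = 4.49e-13). S1pr1, the sphingosine 1-phosphate receptor that lets T cells leave lymphoid tissue, had 15.0 and 49.8 CPM in CXCR5hi, 60.8 and 62.0 in CXCR5int, 74.2 and 104 in CXCR5lo, and 229, 283, 183 and 263 in TH2. It was lowest in the CXCR5hi gate, and the groups did not overlap (log2 ratio -1.97 ± 0.34 SE, adjusted p = 2.09e-05).

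Ly6c1, a surface glycoprotein gene, ranged over 0 to 1.22 CPM in TFH2 and 77.6 to 135 in TH2 (log2 ratio -8.06 ± 0.91 SE, adjusted p = 2.70e-10). The transcription factor Foxp1, a restraint on TFH formation, ranged over 85.2 to 251 CPM in TFH2 and 332 to 428 in TH2 (log2 ratio -0.97 ± 0.25 SE, adjusted p = 0.00885), and Treml2 over 0.407 to 25.4 CPM in TFH2 and 74.6 to 117 in TH2 (log2 ratio -3.06 ± 0.82 SE, adjusted p = 0.0214), a call lost without CXCR5int replicate 2 (adjusted p = 0.0608). Klf3 went the other way, at 139 to 206 CPM in TFH2 and 47.6 to 69.5 in TH2 (log2 ratio 1.47 ± 0.35 SE, adjusted p = 0.00387), as did Rflnb, at 107 to 367 CPM in TFH2 and 22.7 to 130.2 in TH2 (log2 ratio 1.61 ± 0.35 SE, adjusted p = 0.00175), and Tcf7. Il7r, the IL-7 receptor chain, had 0.407 and 0 CPM in CXCR5hi, 44.8 and 44.5 in CXCR5int, 98.9 and 124 in CXCR5lo, and 372, 300.5, 757 and 508 in TH2. It was below TH2 in every TFH2 library but did not pass (adjusted p = 0.21), nor did the homing receptor Ccr7, at 0 to 75.2 CPM in TFH2 and 159 to 254 in TH2 (adjusted p = 0.151). Without the robust option both passed (adjusted p = 0.00295 and 0.00185). Of 23 alternatives in all, Il7r passed in 3 and Ccr7 in 2. The median log2 ratio over the 20 genes was -1.88.

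In the list of chemokine receptors and integrins, 4 of 18 tested members rose and 2 fell. Itgal, the alpha chain of the integrin LFA-1, had 656 and 700.1 CPM in CXCR5hi, 771 and 666 in CXCR5int, 703 and 384 in CXCR5lo, and 229, 191, 216 and 189 in TH2. All TFH2 libraries were above TH2 (log2 ratio 1.65 ± 0.23 SE, adjusted p = 1.62e-07). Gpr183, which encodes EBI2, a receptor for oxysterols that positions cells at the follicle border, had 106 and 178 CPM in CXCR5hi, 237 and 249.7 in CXCR5int, 374 and 134 in CXCR5lo, and 95.7, 96.4, 54.4 and 37.9 in TH2. It was lowest in TH2 replicates 3 and 4, and higher in TFH2 (log2 ratio 1.58 ± 0.32 SE, adjusted p = 4.05e-04), though not called against replicates 1 and 2 alone (adjusted p = 0.114). Cxcr4, the receptor for CXCL12, ranged over 14.8 to 85.4 CPM in TFH2 and 0 to 6.81 in TH2 (log2 ratio 3.75 ± 1.15 SE, adjusted p = 0.0437), and lost its call without CXCR5hi replicate 1 or 2, CXCR5int replicate 1 or TH2 replicate 1, 3 or 4 (adjusted p = 0.0506 to 0.13). Selplg, the P-selectin ligand PSGL-1, ranged over 123 to 471 CPM in TFH2 and 451 to 911 in TH2 and fell (log2 ratio -1.33 ± 0.26 SE, adjusted p = 3.81e-04), though not against TH2 replicates 3 and 4 alone (adjusted p = 0.149). The remaining calls were Cxcr5 and S1pr1. Ccr2 had 0 and 0 CPM in CXCR5hi, 0 and 5.89 in CXCR5int, 84.8 and 144 in CXCR5lo, and 295, 336, 305 and 134 in TH2. Its TFH2 counts came almost wholly from the CXCR5lo gate, and it was not called (adjusted p = 0.34), except as a mean of log gate means (adjusted p = 0.0149), without the CXCR5lo gate (adjusted p = 0.0238), without the robust option (adjusted p = 0.047) or by edgeR's newer quasi-likelihood method (adjusted p = 0.0202).

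Immediate early genes, which T cells induce within minutes to hours of antigen receptor signalling, rose in TFH2 at 11 of 29 tested members. Nfkbia, the gene of the NF-kB inhibitor IkBa, had 8291 and 4977 CPM in CXCR5hi, 6985 and 5396 in CXCR5int, 6697 and 5756 in CXCR5lo, and 1322, 1136, 1286 and 1148 in TH2. The lowest TFH2 library was several times the highest TH2 library (log2 ratio 2.38 ± 0.16 SE, adjusted p = 1.44e-20). Junb, an AP-1 subunit, had 4594 and 5315 CPM in CXCR5hi, 4478 and 5716 in CXCR5int, 4255 and 4589 in CXCR5lo, and 1628, 1528, 1835 and 2335 in TH2. The groups did not overlap (log2 ratio 1.40 ± 0.14 SE, adjusted p = 6.26e-12). Dusp1, a phosphatase of MAP kinases, had 867 and 779 CPM in CXCR5hi, 615 and 569 in CXCR5int, 609 and 334 in CXCR5lo, and 25.9, 22.1, 69.7 and 146 in TH2. It was higher in every TFH2 library (log2 ratio 3.26 ± 0.44 SE, adjusted p = 5.87e-05). Nr4a3, a nuclear receptor induced by T cell receptor signals, had 83.8 and 86.8 CPM in CXCR5hi, 132 and 71.4 in CXCR5int, 71.8 and 30.5 in CXCR5lo, and 0, 2.04, 0.684 and 0 in TH2. TH2 held 8 counts of it in all (log2 ratio 6.67 ± 0.81 SE, adjusted p = 3.75e-09). Rel, the NF-kB subunit c-Rel, had 111 and 25.6 CPM in CXCR5hi, 94.7 and 78.1 in CXCR5int, 46.0 and 100.2 in CXCR5lo, and 8.24, 8.18, 1.71 and 19.5 in TH2 (log2 ratio 3.03 ± 0.59 SE, adjusted p = 1.99e-04).

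Fosb, Jund, Egr3, Ier5, Zfp36 and Cd69 also rose. Cd69, which holds S1PR1 inside the cell, ranged over 171 to 292 CPM in TFH2 and 21.8 to 104 in TH2 (log2 ratio 1.99 ± 0.51 SE, adjusted p = 0.0229). Fos, at 128 to 329 CPM in TFH2 and 0 to 43.8 in TH2, did not overlap between the sides but was not called (adjusted p = 0.111), except without the robust option (adjusted p = 3.35e-04), by edgeR's newer quasi-likelihood method (adjusted p = 9.39e-09) or by DESeq2 (adjusted p = 0.00653). Myc was the 1 member that fell, with 1 count in TFH2 and 206 in TH2 (adjusted p = 0.0378). Calls were lost for Cd69 without CXCR5lo replicate 2 or TH2 replicate 1, 2 or 4 (adjusted p = 0.0511 to 0.0996), for Fosb without TH2 replicate 2 or 3 (adjusted p = 0.0656 to 0.077), for Jund without CXCR5hi replicate 2, CXCR5int replicate 1 or 2 or TH2 replicate 1 or 2 (adjusted p = 0.0568 to 0.233) and for Myc without CXCR5hi replicate 1 or 2, CXCR5int replicate 1 or 2, CXCR5lo replicate 2 or TH2 replicate 1 or 3 (adjusted p = 0.0656 to 0.113). The median log2 ratio of the list was 1.58. Its count of higher members was 8 to 18 over all alternatives.

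The promoters of these genes were read because 2 of the rising genes encode NF-kB proteins or their inhibitor and 3 encode AP-1 subunits. The 250 bases before the RefSeq start (build GRCm38.p6) of the called, rising members were searched on both strands for a form of the NF-kB site, for TGACGTCA, the cyclic AMP response element, and for TGANTCA, the AP-1 site, none of which contains another. Of the 11 genes, 9 were matched. The NF-kB letters stood before 2 of 9, against 1.41% of 32851 promoters, TGACGTCA before 1 of 9, against 1.55%, and TGANTCA before 0 of 9, against 6.75%. Over the whole immediate early list, called or not, they stood before 4, 4 and 1 of 24 matched genes in that order. Matches were thus not particular to the members that rose. The 3 promoters of rising members with a match are shown 5' to 3' on the gene's strand, which is minus for all of them, with the matched letters in capitals. They lie at chr12:55492648-55492897, chr11:23770970-23771219 and chr17:26508473-26508722. A match describes the letters only, and no binding was measured.
Nfkbia: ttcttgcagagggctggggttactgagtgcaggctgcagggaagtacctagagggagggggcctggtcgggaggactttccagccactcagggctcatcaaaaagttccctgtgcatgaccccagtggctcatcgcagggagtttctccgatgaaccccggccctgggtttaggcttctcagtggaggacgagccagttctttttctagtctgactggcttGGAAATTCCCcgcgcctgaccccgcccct
Rel: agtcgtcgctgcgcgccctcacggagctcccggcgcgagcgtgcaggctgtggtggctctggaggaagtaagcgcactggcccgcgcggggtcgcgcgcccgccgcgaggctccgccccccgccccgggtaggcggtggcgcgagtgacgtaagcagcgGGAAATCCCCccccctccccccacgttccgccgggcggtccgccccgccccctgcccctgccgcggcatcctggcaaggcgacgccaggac
Dusp1: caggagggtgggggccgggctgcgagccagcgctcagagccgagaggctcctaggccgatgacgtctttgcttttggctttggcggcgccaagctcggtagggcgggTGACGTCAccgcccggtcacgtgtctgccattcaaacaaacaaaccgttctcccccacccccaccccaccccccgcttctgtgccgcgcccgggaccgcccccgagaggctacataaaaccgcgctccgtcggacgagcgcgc

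Cytokine receptors rose at 1 of 21 tested members and fell at 2, Il4ra being one of them, against 2.18% higher and 1.71% lower over all genes tested. Il2rb, the beta chain for IL-2 and IL-15, had 607 and 358 CPM in CXCR5hi, 633 and 657 in CXCR5int, 800.3 and 658 in CXCR5lo, and 266, 353, 142 and 156 in TH2. Its lowest TFH2 library was just above its highest TH2 library (log2 ratio 1.43 ± 0.27 SE, adjusted p = 1.37e-04), and it was not called against TH2 replicates 1 and 2 alone (adjusted p = 0.0935). Ifngr1, the interferon gamma receptor chain, ranged over 8.39 to 93.6 CPM in TFH2 and 109 to 300.1 in TH2 and fell (log2 ratio -2.52 ± 0.56 SE, adjusted p = 0.00392), but not against TH2 replicates 3 and 4 alone (adjusted p = 0.109). Il2ra, the high-affinity IL-2 receptor chain, had 32 counts in TFH2, all in CXCR5int replicate 2, and 344 in TH2. It was not called (adjusted p = 0.0751), but passed without CXCR5int replicate 2 (adjusted p = 0.00177), without the CXCR5int gate (adjusted p = 0.00535), as a mean of log gate means (adjusted p = 0.0044), by edgeR's newer method (adjusted p = 0.0068) and by DESeq2 (adjusted p = 0.0358).

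Of 14 tested regulatory T cell genes 3 rose and 1 fell, and Foxp3 had no count in any of the 10 libraries. Izumo1r, which encodes the folate receptor FR4 that TFH and regulatory T cells both carry, had 689.8 and 541 CPM in CXCR5hi, 566 and 751 in CXCR5int, 385 and 442 in CXCR5lo, and 11.8, 8.52, 3.08 and 13.0 in TH2. Groups were far apart (log2 ratio 5.97 ± 0.57 SE, adjusted p = 2.34e-06). Ikzf2, the gene of Helios, ranged over 22.4 to 128 CPM in TFH2 and 0 to 20.5 in TH2 (log2 ratio 3.36 ± 0.89 SE, adjusted p = 0.0414), and lost its call without CXCR5hi replicate 1 or 2, CXCR5int replicate 1 or 2, CXCR5lo replicate 1 or TH2 replicate 2 (adjusted p = 0.0579 to 0.108). Nt5e, which encodes CD73, had 317 counts in TFH2 and 1 in TH2 (adjusted p = 0.0341), and lost its call without CXCR5hi replicate 1, CXCR5int replicate 1 or TH2 replicate 1, 2 or 4 (adjusted p = 0.0657 to 0.105). Lrrc32, the GARP gene, had 7 counts in TFH2, all in CXCR5lo replicate 1, and 119.6, 43.3, 42.4 and 18.4 CPM in TH2. It fell (log2 ratio -6.96 ± 1.78 SE, adjusted p = 0.00891), and lost the call without TH2 replicate 1 (adjusted p = 0.0975), without the CXCR5hi or the CXCR5int gate (adjusted p = 0.0647 and 0.0619) and against TH2 replicates 3 and 4 alone (adjusted p = 0.191). The list's median log2 ratio was 0.49 as fitted and -0.05 with empty sides at their bound.

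TH1 and cytotoxic genes showed 1 rise and 1 fall in 20 tested, near the shares of 2.18% higher and 1.71% lower over all genes. Gzma, the protease granzyme A, had 0.407 and 17.8 CPM in CXCR5hi, 0 and 0.655 in CXCR5int, 30.2 and 0 in CXCR5lo, and 889.8, 679, 81.7 and 108 in TH2. TH2 replicates 1 and 2 were far above 3 and 4, and the lower level in TFH2 (log2 ratio -5.73 ± 1.46 SE, adjusted p = 0.0363) was not called without CXCR5hi replicate 1 or 2, CXCR5int replicate 1 or 2, CXCR5lo replicate 2 or TH2 replicate 1 or 2 (adjusted p = 0.0582 to 0.102). Klrg1, an inhibitory lectin-like receptor, had 0 and 0 CPM in CXCR5hi, 8.79 and 57.6 in CXCR5int, 109.6 and 152 in CXCR5lo, and 0 in all 4 TH2 libraries. It had no count in CXCR5hi, and was at least 45.0-fold higher over the 6 libraries than in TH2 (adjusted p = 0.00883). It was not called as a mean of log gate means (adjusted p = 1) or by DESeq2 (adjusted p = 0.0946).

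Interferon response genes rose at 4 of 22 and fell at 1. Isg20, an exonuclease gene, had 263 and 219 CPM in CXCR5hi, 276 and 223 in CXCR5int, 194 and 208 in CXCR5lo, and 81.6, 74.3, 40.3 and 53.6 in TH2 (log2 ratio 1.88 ± 0.31 SE, adjusted p = 9.59e-06). Ifih1, the RNA sensor MDA5, had 303 counts in TFH2 and 1 in TH2 (adjusted p = 0.00681). Ifi47, a GTPase induced by interferon gamma, ranged over 41.7 to 139 CPM in TFH2 and 191 to 300.4 in TH2 and was lower (log2 ratio -1.22 ± 0.30 SE, adjusted p = 0.00629). Calls of Ifit3 (log2 ratio 3.84 ± 1.00 SE, adjusted p = 0.0207) and Oas1g (adjusted p = 0.0427) were lost when single libraries were left out, Ifit3 without CXCR5int replicate 1, CXCR5lo replicate 2 or TH2 replicate 1, 3 or 4 (adjusted p = 0.051 to 0.107) and Oas1g without CXCR5int replicate 1 or 2 or TH2 replicate 1, 2, 3 or 4 (adjusted p = 0.0915 to 0.13).

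Ribosomal protein genes were the group in which the most members fell, at 53 of 77, with none higher. Rplp1, a protein of the ribosomal stalk, had 1992 and 1614 CPM in CXCR5hi, 1913 and 2258 in CXCR5int, 2048 and 1802 in CXCR5lo, and 4626, 5029, 4399.6 and 4882 in TH2. No TFH2 library reached the TH2 range (log2 ratio -1.29 ± 0.14 SE, adjusted p = 1.86e-11). Rps3, of the small subunit, had 1460.4 and 924 CPM in CXCR5hi, 1644 and 1093 in CXCR5int, 1616 and 1772 in CXCR5lo, and 3399, 3332, 3385 and 4126 in TH2 (log2 ratio -1.33 ± 0.15 SE, adjusted p = 5.37e-10). Rps13, Rps19 and Rps20 fell by 1.19, 1.22 and 1.17 on the log2 scale (adjusted p = 9.66e-09, 1.64e-08 and 1.24e-08). Over the 77 genes the log2 ratio ran from -1.48 to 0.98 with a median of -0.80, and 75 were negative. The count of lower members was 36 to 58 over all alternatives, with 0 higher in each. Of the 246 lower calls in the whole comparison, 86 were annotated as pseudogenes, which can share reads with the gene they copy, against 3 of the 314 higher calls.

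Of 11 tested mitochondrially encoded genes, 2 rose and 1 fell, with a median log2 ratio of 0.07. mt-Nd4, a complex I subunit, ranged over 10318 to 16215 CPM in TFH2 and 5879 to 10705 in TH2 (log2 ratio 0.68 ± 0.15 SE, adjusted p = 0.00505), and mt-Cytb over 6524 to 11189 CPM in TFH2 and 5195 to 7317 in TH2 (log2 ratio 0.49 ± 0.13 SE, adjusted p = 0.0185). mt-Co1, a subunit of cytochrome c oxidase, ranged over 771 to 1401 CPM in TFH2 and 1346 to 1903 in TH2 and was lower (log2 ratio -0.65 ± 0.17 SE, adjusted p = 0.00933). The mt-Cytb call was lost without CXCR5hi replicate 1 or 2 or TH2 replicate 1 or 2 (adjusted p = 0.0565 to 0.121), the mt-Co1 call without TH2 replicate 3 (adjusted p = 0.0511), and neither mt-Nd4 nor mt-Cytb passed against TH2 replicates 3 and 4 alone (adjusted p = 0.2 and 0.474). Nuclear genes of the respiratory chain had 0 calls among 22 (median 0.31), and cholesterol synthesis had 0 among 17 (median 0.44, or 0.16 with empty sides at their bound). Glycolysis and hypoxia genes had 1 call in 16, Pdk1, at 5.09 to 53.2 CPM in TFH2 and 57.3 to 231 in TH2 (log2 ratio -2.23 ± 0.59 SE, adjusted p = 0.0187), lost without CXCR5int replicate 1 or TH2 replicate 3 or 4 (adjusted p = 0.053 to 0.0832). Cell cycle genes had 0 calls among 20. Their median was -0.60, but against TH2 replicates 3 and 4 alone 3 rose and the median was 2.79, and against replicates 1 and 2 alone 2 fell and it was -1.37, so the direction turned with the pair. Of 5 sex-linked genes, which part the TH2 libraries, 0 were called, while against replicates 1 and 2 alone 1 rose and 1 fell.

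Beyond the lists, the largest rises among genes whose groups did not overlap included Nav2, a cytoskeletal guidance gene, with 227 and 154 CPM in CXCR5hi, 119 and 85.5 in CXCR5int, 38.5 and 44.3 in CXCR5lo, and 0 in all 4 TH2 libraries. It was at least 91.9-fold higher (adjusted p = 3.10e-11). Cxcl2, a neutrophil chemokine, had 0.407 and 23.1 CPM in CXCR5hi, 147 and 57.2 in CXCR5int, 325 and 68.2 in CXCR5lo, and 0 in all 4 TH2 libraries. Its 6 TFH2 values ran from 0.407 to 325, and the call was lost without TH2 replicate 1, 2, 3 or 4 (adjusted p = 0.0604 to 0.0733). Coq10b, a mitochondrial coenzyme Q binding protein gene, ranged over 23.8 to 146 CPM in TFH2 and 0 in all 4 TH2 libraries (at least 54.2-fold higher, adjusted p = 1.58e-07), and the elastase gene Cela1 over 35.0 to 82.3 CPM in TFH2 and 0 in all 4 TH2 libraries (at least 47.6-fold higher, adjusted p = 3.33e-06).

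Several of the others are known from macrophages, antigen-presenting cells, red cells or B cells, whose marker sums were given above. Csf1r, the receptor for macrophage colony-stimulating factor, had 255 and 400.1 CPM in CXCR5hi, 93.9 and 259 in CXCR5int, 23.4 and 127 in CXCR5lo, and 0.392, 0.341, 0 and 0 in TH2 (a ratio of 1040-fold, with a 95% counting interval of 287 to 8580, adjusted p = 2.33e-12). C1qa, a complement component made by macrophages, had 126 and 403 CPM in CXCR5hi, 118 and 193 in CXCR5int, 115 and 79.9 in CXCR5lo, and 0.392, 0.341, 0 and 0 in TH2 (a ratio of 927-fold, with a 95% counting interval of 256 to 7660, adjusted p = 1.60e-12). C1qc ranged over 55.6 to 323 CPM in TFH2 and 0 to 0.784 in TH2, C1qb over 0.509 to 118 CPM in TFH2 and 0 in all 4 TH2 libraries and Fcer1g over 11.6 to 37.1 CPM in TFH2 and 0 in all 4 TH2 libraries. With these, 5 of 9 tested myeloid markers rose and none fell, and Fcer1g lost its call without TH2 replicate 1, 2, 3 or 4 (adjusted p = 0.0525 to 0.0611). Itgam was not tested, with 15 counts in 1 TFH2 library. H2-Aa, an MHC class II chain, ranged over 62.1 to 97.5 CPM in TFH2 and 0 in all 4 TH2 libraries (at least 69.7-fold higher, adjusted p = 2.29e-04), and Slpi and Fcna, known from myeloid cells, were at least 45.8-fold higher and at least 44.7-fold higher (adjusted p = 8.71e-04 and 7.20e-04). Sirpa, an inhibitory receptor of myeloid cells, ranged over 22.9 to 113 CPM in TFH2 and 0 in all 4 TH2 libraries (adjusted p = 6.30e-04).

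Among erythroid genes, Hbb-bs, a beta globin, had 528 and 627 CPM in CXCR5hi, 155 and 491 in CXCR5int, 223 and 198 in CXCR5lo, and 0, 0.341, 0.342 and 0 in TH2 (a ratio of 2010-fold, with a 95% counting interval of 555 to 16600, adjusted p = 8.17e-09). Hbb-bt (log2 ratio 7.06 ± 1.22 SE, adjusted p = 4.50e-05) and Hba-a2 (log2 ratio 4.82 ± 1.25 SE, adjusted p = 0.0391) rose as well, 3 of 4 tested, the globin copies being near-identical and hence uncertain as single genes. The Hba-a2 call was lost without CXCR5hi replicate 1 or 2, CXCR5int replicate 1 or 2, CXCR5lo replicate 2 or TH2 replicate 1, 3 or 4 (adjusted p = 0.0514 to 0.0947). Igkc, the immunoglobulin kappa constant region, had 302 and 599.8 CPM in CXCR5hi, 57.6 and 220.4 in CXCR5int, 349 and 47.8 in CXCR5lo, and 0.392, 0.681, 0 and 0 in TH2 (a ratio of 931-fold, with a 95% counting interval of 318 to 4520, adjusted p = 1.99e-10). It was the 1 of 4 tested B cell markers that rose, while Ms4a1 had no count. CD4 T cell markers rose at 2 of 9, Cd4 (log2 ratio 1.09 ± 0.19 SE, adjusted p = 3.29e-05) and Trbc2 (log2 ratio 0.63 ± 0.14 SE, adjusted p = 0.00224). Myeloid sums were 669.8 and 1338 CPM in CXCR5hi, 496.8 and 778.2 in CXCR5int and 257.6 and 346.4 in CXCR5lo, and the same sum was 78.98 to 212.6 in the 8 TFH libraries of the series. The part of these marker levels in the results for other genes was not tested.

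Among genes whose groups did not overlap, the largest falls outside the lists included Trat1, an adaptor of the T cell receptor complex. It had 0 and 9.97 CPM in CXCR5hi, 9.19 and 17.5 in CXCR5int, 14.1 and 2.54 in CXCR5lo, and 165, 134, 117 and 49.8 in TH2 (log2 ratio -3.69 ± 0.81 SE, adjusted p = 0.00402). Pik3ip1, an inhibitor of PI3 kinase, ranged over 1.02 to 28.1 CPM in TFH2 and 142 to 338 in TH2 (log2 ratio -3.69 ± 0.82 SE, adjusted p = 0.0133), and Txnip, the thioredoxin inhibitor that curbs glucose uptake, over 11.4 to 99.3 CPM in TFH2 and 488 to 699 in TH2 (log2 ratio -3.51 ± 0.69 SE, adjusted p = 0.0059). Mir142hg, the host transcript of a blood cell microRNA, ranged over 6.41 to 40.2 CPM in TFH2 and 166 to 209.9 in TH2 (log2 ratio -3.60 ± 0.67 SE, adjusted p = 5.72e-04), and Vipr1, a receptor for vasoactive intestinal peptide, over 0 to 5.89 CPM in TFH2 and 36.9 to 86.9 in TH2 (log2 ratio -5.50 ± 1.32 SE, adjusted p = 0.0044). The integrin gene Itgb3, at 0.407 to 108 CPM in TFH2 and 336 to 629.6 in TH2 (log2 ratio -3.52 ± 0.91 SE, adjusted p = 0.039), lost its call without CXCR5hi replicate 2, CXCR5int replicate 1 or 2 or TH2 replicate 1, 2, 3 or 4 (adjusted p = 0.0579 to 0.0869). Ctla2a, at 0 to 35.0 CPM in TFH2 and 81.4 to 507 in TH2 (log2 ratio -4.94 ± 1.27 SE, adjusted p = 0.0381), lost its call without CXCR5hi replicate 1 or 2, CXCR5int replicate 1 or 2, CXCR5lo replicate 2 or TH2 replicate 1, 2 or 4 (adjusted p = 0.0563 to 0.111). Card6 (log2 ratio -3.90 ± 1.02 SE, adjusted p = 0.0107) lost its call without TH2 replicate 3 (adjusted p = 0.0625) and Pnpla7 (log2 ratio -3.17 ± 0.81 SE, adjusted p = 0.0086) without TH2 replicate 4 (adjusted p = 0.0602).

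Many calls rested on all 4 TH2 libraries. Of the genes named, Arl4c, C1qb, Ctla2a, Cxcl2, Egr3, Fcer1g, Ifih1, Itgb3, Klrg1, Myc, Nt5e, Oas1g, Pdcd1, Pik3ip1, Tcf7, Tnfsf11 and Treml2 missed the threshold against either TH2 pair alone (adjusted p = 0.0508 to 0.28 against replicates 3 and 4, and 0.0601 to 0.312 against replicates 1 and 2). Missing it against replicates 3 and 4 but not against 1 and 2 were Cd69, Ecm1, Gzma, Ifi47, Ifngr1, Ikzf2, Jund, Lrrc32, mt-Co1, mt-Cytb, mt-Nd4 and Selplg (adjusted p = 0.109 to 0.536). The reverse held for Card6, Cd28, Cxcr4, Foxp1, Gpr183, Hba-a2, Ier5, Ifit3, Il2rb, Irf8, Klf3, Pdk1, Pnpla7, Pou2af1, Sh2d1a, Trbc2 and Zfp36 (adjusted p = 0.0611 to 0.346). Each pair alone leaves 2 TH2 libraries in the test. Some calls that held with every single library left out were lost when a whole gate was. Without the CXCR5hi gate these were C1qb, H2-K1, Irf8, Pik3ip1, Sh2d1a, Trbc2 and Zfp36. Irf8 and Pik3ip1 were also lost without the CXCR5int gate, and Klrg1 and Trat1 without the CXCR5lo gate. Ecm1 lost its call without any 1 of the 3 gates.

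Each gate was also set against TH2 by itself. These 3 comparisons share the 4 TH2 libraries, so their values are given side by side and their agreement is not counted. CXCR5hi differed from TH2 at 423 genes (2.94%), 244 higher (1.7%) and 179 lower (1.24%). CXCR5int differed at 276 (1.92%), 178 higher (1.24%) and 98 lower (0.681%). CXCR5lo differed at 252 (1.75%), 153 higher (1.06%) and 99 lower (0.688%), and without CXCR5lo replicate 2 at 114, 88 higher and 26 lower. Without CXCR5lo replicate 1 the balance turned, with 117 higher and 168 lower. CXCR5hi differed at 281 without its replicate 1 and 270 without its replicate 2, and CXCR5int at 172 without its replicate 2. TFH genes rose at 11, 12 and 8 of 20 in the CXCR5hi, CXCR5int and CXCR5lo gates, and ribosomal protein genes fell at 39, 31 and 31 of 77. For Bcl6 the log2 ratios to TH2 were 5.68 ± 0.73, 4.07 ± 0.70 and 2.48 ± 0.69 in that order (adjusted p = 1.19e-09, 1.28e-05 and 0.0311), yet the test among the gates did not pass (adjusted p = 0.31). For Il4ra they were -4.57 ± 0.62, -3.46 ± 0.57 and -3.07 ± 0.56 (adjusted p = 2.44e-04, 0.00251 and 0.00693, among gates 0.974). For Nfkbia they were 2.44 ± 0.18, 2.34 ± 0.18 and 2.35 ± 0.18 (adjusted p = 1.81e-22, 3.86e-21 and 2.99e-21, among gates 1).

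The 3 gates differed from each other at 13 genes (0.0904%), 11 of which were not called between TFH2 as a whole and TH2. Several were lowest in CXCR5hi and nearer to TH2 in CXCR5lo. Rasgrp2, an activator of the integrin regulator RAP1, had 18.7 and 45.9 CPM in CXCR5hi, 151 and 152 in CXCR5int, 226 and 613 in CXCR5lo, and 475, 569, 449 and 430.4 in TH2 (among gates adjusted p = 3.50e-08). Its log2 ratio to TH2 was -3.89 ± 0.43 in CXCR5hi (adjusted p = 1.05e-11) and -0.20 ± 0.35 in CXCR5lo (adjusted p = 0.95). Id2, an inhibitor of E proteins that BCL6 represses, had 105 and 183 CPM in CXCR5hi, 287 and 450.4 in CXCR5int, 726 and 843 in CXCR5lo, and 1149, 1229, 902 and 873 in TH2 (among gates adjusted p = 6.53e-06). Runx3, a transcription factor of TH1 and CD8 T cells, had 4.88 and 26.7 CPM in CXCR5hi, 132 and 82.3 in CXCR5int, 229 and 124 in CXCR5lo, and 209.8, 389, 279 and 168 in TH2 (among gates adjusted p = 3.45e-04). In all 3, both CXCR5hi libraries were below every library of the other gates.

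Klf2, the transcription factor that drives S1pr1, had 43.9 and 25.6 CPM in CXCR5hi, 176 and 172 in CXCR5int, 161 and 175 in CXCR5lo, and 182, 129, 170.3 and 173 in TH2. It was low in CXCR5hi and within the TH2 range in the other gates (among gates adjusted p = 0.00432). Over the 6 libraries the test against TH2 was not passed (log2 ratio -0.38 ± 0.36 SE, adjusted p = 0.702), and its sign turned without the CXCR5hi gate (log2 ratio 0.05). Anxa6, a membrane-binding annexin, had 90.3 and 70.1 CPM in CXCR5hi, 261 and 296 in CXCR5int, 655 and 712 in CXCR5lo, and 358, 393, 389.8 and 347 in TH2 (among gates adjusted p = 5.11e-07). CXCR5hi lay below TH2 and CXCR5lo above it. Tagln2, an actin-binding protein gene, ordered the gates in the same way (group means of 109 CPM in CXCR5hi, 422 in CXCR5int and 830.4 in CXCR5lo against 466 in TH2, among gates adjusted p = 0.00146), with TH2 itself split between 663 to 737 and 227 to 238. Adgre5, the adhesion receptor CD97, had group means of 35.5, 123 and 249 CPM against 212 in TH2 (among gates adjusted p = 0.00432).

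Arl4c, a small GTPase gene, was below TH2 in all gates and lowest in CXCR5hi, with 40.3 and 27.1 CPM in CXCR5hi, 267 and 144 in CXCR5int, 289 and 204 in CXCR5lo, and 746, 779, 613 and 657 in TH2 (among gates adjusted p = 1.62e-05). Over the 6 libraries it fell by 2.11 on the log2 scale (adjusted p = 0.0363), a call lost without CXCR5int replicate 2, CXCR5lo replicate 2 or TH2 replicate 1, 2, 3 or 4 (adjusted p = 0.0549 to 0.0838). Fam3c, a secreted protein gene, had 92.7 and 42.0 CPM in CXCR5hi, 33.6 and 99.7 in CXCR5int, 0 and 0 in CXCR5lo, and 76.9, 90.3, 111 and 70.4 in TH2. It had no count in CXCR5lo, which allows up to 1.28 CPM with 3 counts in each library, and near the TH2 level elsewhere (among gates adjusted p = 2.39e-05). Bach2, a repressor that maintains naive T cells, had 0 and 0 CPM in CXCR5hi, 32.0 and 0.218 in CXCR5int, 0 and 0 in CXCR5lo, and 88.2, 52.1, 119 and 42.2 in TH2. Nearly all of its TFH2 counts came from CXCR5int replicate 1, and without that library the gates no longer differed (adjusted p = 1 against 0.00371), while TFH2 was then called lower than TH2 (adjusted p = 5.88e-09 against 0.127). Differences among gates were likewise lost for Adgre5 without CXCR5hi replicate 1 or CXCR5lo replicate 1 (adjusted p = 0.181 to 0.233), Klf2 without CXCR5hi replicate 2 (adjusted p = 0.639) and Runx3 without CXCR5hi replicate 1 (adjusted p = 0.233). The myeloid sum was also highest in CXCR5hi and lowest in CXCR5lo, and its part in the gate differences was not tested.

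**Figure D4:**
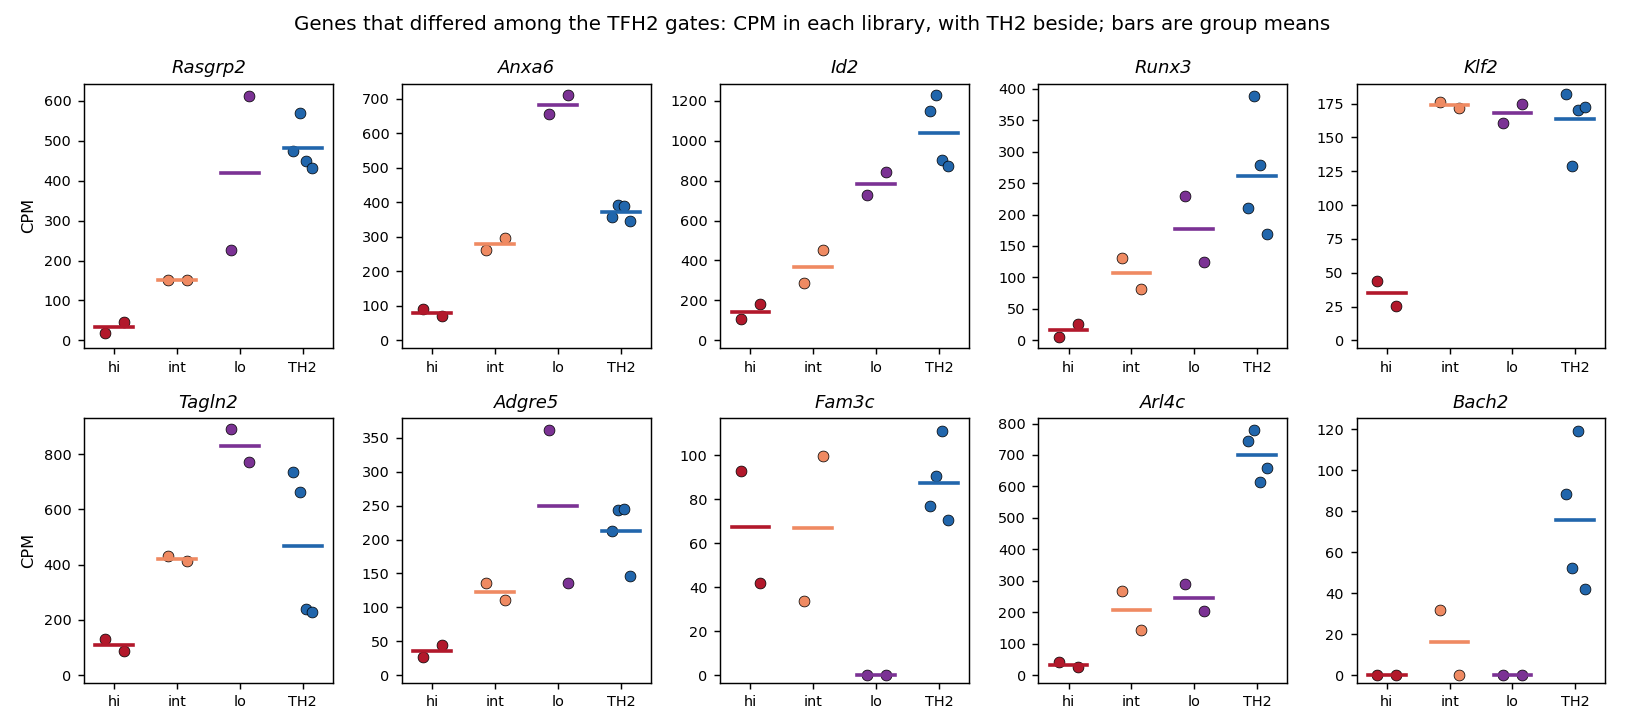
CPM of 10 genes that differed among the TFH2 gates, with 1 point for each library by gate, the 4 TH2 libraries beside them and bars at group means, on a linear y axis for each gene. Rasgrp2, Id2, Runx3, Anxa6, Tagln2 and Adgre5 lie lowest in CXCR5hi, Klf2 is low in CXCR5hi alone, and Fam3c is at 0 in both CXCR5lo libraries.

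A pair of RNA-seq libraries made with another kit carries the labels TFH2 CXCR5hi and TH2 on the genotype label wild type IL-4BacTg x OTII Tg, with 36048137 and 41745365 transcript counts. With 1 library each there was no test, and the values went against the labels. Cxcr5 had 0.388 CPM in the library labelled TFH2 and 47.9 in the one labelled TH2. Pdcd1 had 2.08 and 49.2 CPM in that order, Bcl6 4.58 and 42.8, Tox2 0.139 and 52.8, and Il21 1.80 and 38.3. Il4ra was at 199 CPM in the library labelled TFH2 and 10.1 in the one labelled TH2. Of 304 genes called higher in the QuantSeq TFH2 libraries, 186 (61.2%) were more than 2-fold lower and 1 more than 2-fold higher in the library labelled TFH2, against 12.8% and 8.49% of all 10878 genes compared. Of 161 genes called lower, 52 (32.3%) were more than 2-fold higher and 9 (5.59%) more than 2-fold lower. All 9 myeloid and all 4 erythroid markers compared were more than 2-fold higher in the library labelled TH2. No QuantSeq result rests on this pair.

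**Figure D5:**
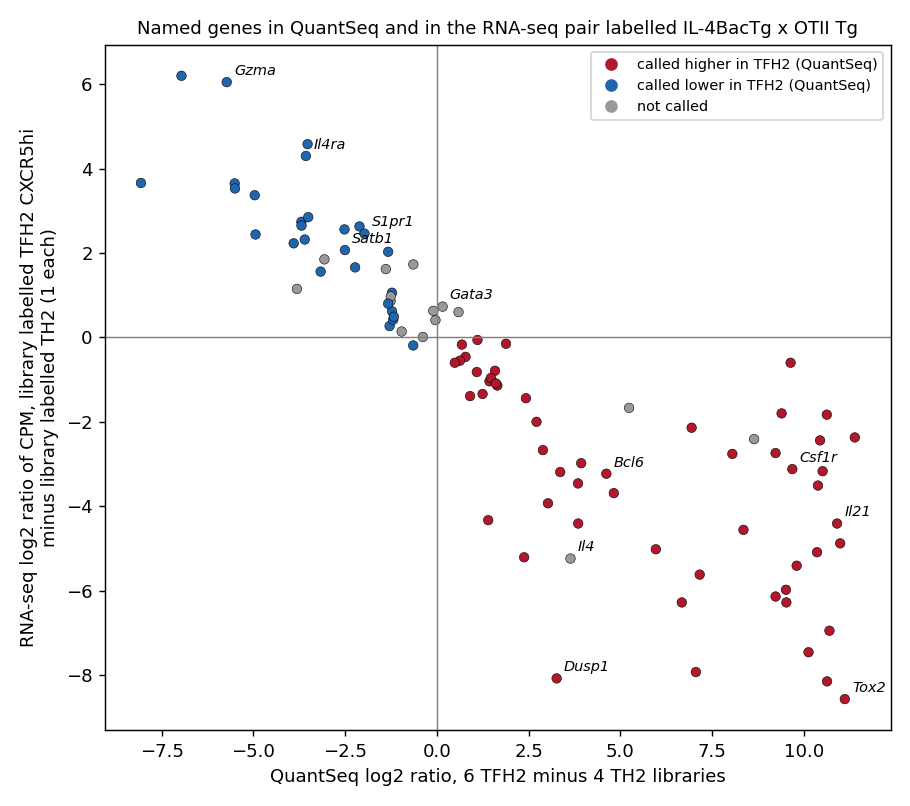
Each point is 1 of 100 named genes, except that Cxcl2, Fcna and Sostdc1 are not drawn. They had no count in the RNA-seq library labelled TFH2, so their RNA-seq ratio is not finite. The x axis gives the QuantSeq log2 ratio of 6 TFH2 to 4 TH2 libraries, where values of genes with no count in TH2 come from the fit and are not bounds. The y axis gives the log2 ratio of the RNA-seq library labelled TFH2 CXCR5hi to the one labelled TH2. All plotted genes called higher in QuantSeq lie below 0 on the y axis, and the plotted genes called lower lie above it with 1 exception.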

How the data were processed

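The authors deposited 3' QuantSeq read counts per gene for 22 libraries, made per the labels' protocols from 10 ng of total RNA with the Lexogen kit and read on a HiSeq1500, and counts per transcript for the RNA-seq libraries. The submitters' processing notes name featureCounts 1.6.0, Bowtie 0.12.2 and STAR 2.7.0c, with mm9, mm10 and GRCm38.p6 as builds and no roles. Genes were named from GENCODE M21, leaving 93 of 55573 identifiers unnamed (0.00617% of counts).

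Libraries were scaled with TMM and genes kept with filterByExpr (minimum count 10, minimum total 15), which left 14383. edgeR 4.0.16 (R 4.3.3) quasi-likelihood fits with robust estimation over all 22 libraries, which share 1 estimate of the spread, gave 2-sided p values, adjusted by Benjamini and Hochberg over all genes and called under 0.05. The 6 TFH2 libraries formed 1 group, which weights the gates equally. Gates were compared in a 9-group fit. Log2 ratios with SE are on this scale, and CPM use TMM library sizes. Where TH2 had no count, folds are bounds with 3 counts in each TH2 library, and where it had 1 to 4, ratios of pooled counts with exact 95% intervals that cover counting error only. Gene lists, 25 in all, and comparisons were chosen with earlier results of these data known. Genes named were the 15 highest and 15 lowest called ratios among genes whose libraries did not overlap and whose mean was at least 50 CPM in 1 group, up to 5 called per list, 10 with the smallest p among gates, 20 genes of TFH, TH2 and trafficking whatever their result, and list members that did not pass. Some of these genes are not reported here. Unnamed gene models were left out. Others were named after their values were seen. Replicate pairs differed beyond sampling noise. In simulated data for TFH2 over all gates against TH2, on 13340 genes, 10%, 60%, 86% and 84% of 2-, 4-, 8- and 16-fold changes were recovered (50 genes each), and 5.51% of calls were false. Changed genes were drawn above a minimum mean CPM, with the same fold in every library of a side and no gate differences. Alternatives covered averaging, DESeq2 1.42.0, scaling, filter, libraries and robust estimation. In the RNA-seq pair, the transcript with the most counts stood for a gene (minimum 20).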

Additional observations from a re-analysis of the deposited data

Results flagged for a closer look

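In 250 groups of 4 or 6 values with a range of at least 20 CPM looked at for 1 library far from the rest, 20 had one, 16 in TFH2 and 4 in TH2, where chance gives about 1 in 20. The gap to the nearest library exceeded Dixon's 95% critical value in each.

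Among the values flagged, CXCR5lo libraries stood apart most often, in genes chosen partly for differences among the gates. Replicate 1 was high for Adgre5 (362 CPM, nearest 136), Ctla2a (35 CPM, nearest 4.58), Mir142hg (40.2 CPM, nearest 15.3), Rps13 (2000 CPM, nearest 1430) and the summed CD8 T cell and NK cell markers (27.5 CPM, nearest 10.2). Replicate 2 was high for Gata3 (480 CPM, nearest 281), Il5 (67.1 CPM, nearest 24.4), Rasgrp2 (613 CPM, nearest 226) and Arpc1b (5520 CPM, nearest 4190), and low for Itgal (384 CPM, nearest 656). CXCR5hi replicate 2 was high for C1qa (403 CPM, nearest 193), C1qb (118 CPM, nearest 41.1) and the summed plasma cell markers (157 CPM, nearest 48), and replicate 1 for Cotl1 (2290 CPM, nearest 1480). CXCR5int replicate 1 was high for Bach2 (32 CPM, nearest 0.218) and Dnajc3 (231 CPM, nearest 183). In TH2, replicate 4 was low for Klf3 (47.6 CPM, nearest 66) and high for Rps3 (4130 CPM, nearest 3400), replicate 3 was low for Hsp90ab1 (883 CPM, nearest 1550), and replicate 1 was high for the CD8 T cell and NK cell sum (27.1 CPM, nearest 1.71).

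The test among the 3 gates found 13 genes. By edgeR's quasi-likelihood test the adjusted p was 3.50e-08 for Rasgrp2, 5.11e-07 for Anxa6, 6.53e-06 for Id2, 1.62e-05 for Arl4c, 2.39e-05 for Fam3c and 3.45e-04 for Runx3. It was 0.00146 for Tagln2, 0.00361 for the pseudogene Art2a-ps, 0.00371 for Bach2, 0.00432 for Klf2 and Adgre5, 0.0263 for AC122453.1 and 0.0458 for Smad5.

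The RNA-seq pair, on which no QuantSeq comparison rests, ran against its labels. Of the genes called higher in the QuantSeq TFH2 libraries, 61.2% were more than 2-fold lower in the library labelled TFH2, and of those called lower, 32.3% were more than 2-fold higher there.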

How the results depend on the processing

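DESeq2 called 874 genes for TFH2 over all gates against 560, and 816, 528 and 619 for CXCR5hi, CXCR5int and CXCR5lo against 423, 276 and 252. Its splits of higher and lower were 375 and 441, 260 and 268, and 273 and 346. Size factors gave 566, library size alone 579, no filter 618, and the 10 libraries alone 629. The mean of log gate means gave 626, split into 292 higher and 334 lower, and shared 534 calls, 95.4% of the 560 and 85.3% of its own. TH2 replicates 1 and 2 alone gave 340. The median log2 ratio of all genes ran from -0.14 with log gate means to 0.31 against TH2 replicates 3 and 4.

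Leaving out 1 library at a time, with the same genes tested, gave 461 to 575 for all gates, 270 to 495 for CXCR5hi, 172 to 357 for CXCR5int, 114 to 320 for CXCR5lo and 13 to 43 among the gates. CXCR5hi fell to 281 without its replicate 1 and 270 without replicate 2, CXCR5int to 172 and CXCR5lo to 114 without replicate 2, and the count among gates was 43 without CXCR5lo replicate 1, 31 and 25 without CXCR5int replicates 2 and 1, and 24 without CXCR5hi replicate 1. A gate left with 1 library was assumed to vary like the other groups. The count among gates was 29 with no filter, 55 with the 10 libraries alone and 51 with DESeq2. Chosen after seeing the data, a fit without the robust option gave 604 for all gates and 34 among gates, and edgeR's newer quasi-likelihood method gave 824 for all gates, 435 for CXCR5int and 38 among gates. The log2 ratio of Gata3, 0.15, ran from -0.04 to 0.28 with 1 library left out. The sign turned for Gata3 without CXCR5lo replicate 2 (-0.04) and without the CXCR5lo gate (-0.09), and for Klf2 without the CXCR5hi gate (0.05). Of 84 called genes named by the rule, 65 kept the call with every library left out and 47 in every alternative. For the 57 others that were called, these counts were 39 and 17. Calls lost against TH2 replicates 3 and 4 alone were 25 of the 84 and 17 of the 57, and against replicates 1 and 2 alone 24 and 32. Without the CXCR5hi gate they were 19 and 12. No paired analysis was possible because the labels give no replicate numbers. At this depth and spread, 10% of simulated 2-fold and 60% of 4-fold changes were recovered, in genes above a minimum mean CPM and without gate differences.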

Other observations

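Other gene groups were chosen after their values were seen, so their counts only describe them. The share of 2.18% of all genes tested that were called higher is given for scale and is no test of these groups. Genes of the actin cytoskeleton rose in TFH2 at 12 of 28 and fell at none, with a median log2 ratio of 0.62. The count was 9 to 14 with 1 library left out, 10 against TH2 replicates 3 and 4 alone and 3 against replicates 1 and 2 alone. Cotl1, an actin-binding protein, had 2289 and 1092 CPM in CXCR5hi, 1475 and 1281 in CXCR5int, 1474 and 1304 in CXCR5lo, and 722, 674, 445 and 429.8 in TH2, and no TFH2 library overlapped TH2 (log2 ratio 1.39 ± 0.20 SE, adjusted p = 2.47e-07). Chaperone and unfolded protein response genes rose at 6 of 21 tested, at 4 against TH2 replicates 3 and 4 alone, and at 1, Hspa5, against replicates 1 and 2 alone. Hspa5, the endoplasmic reticulum chaperone BiP, had 1050.1 and 1649 CPM in CXCR5hi, 1126 and 1810.2 in CXCR5int, 1679 and 1434 in CXCR5lo, and 446, 302, 367 and 368 in TH2 (log2 ratio 1.98 ± 0.19 SE, adjusted p = 1.61e-12). MHC class I presentation genes rose at 5 of 20, among them H2-Q7 (log2 ratio 1.03 ± 0.23 SE, adjusted p = 0.00175) and H2-K1 (log2 ratio 0.66 ± 0.16 SE, adjusted p = 0.00578), relatives that can share reads. Against either TH2 pair alone 2 of the 20 rose, and H2-K1 was called in neither and H2-Q7 not against replicates 3 and 4. Macrophage genes of the spleen rose at 12 of 18 tested, at 4 without the CXCR5hi gate and at 3 against either TH2 pair alone, beside the myeloid marker sums given with the libraries. Their part in the other groups was not tested.

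Among single genes chosen in the same way, Rgs2, a regulator of G protein signalling, had 911 and 1245 CPM in CXCR5hi, 834 and 1144 in CXCR5int, 1093 and 1049 in CXCR5lo, and 93.3, 42.2, 80.3 and 59.0 in TH2. All 6 TFH2 libraries lay above every TH2 library (log2 ratio 3.93 ± 0.25 SE, adjusted p = 5.01e-21). Asb2, a ubiquitin ligase subunit, ranged over 157 to 495 CPM in TFH2 and 1.08 to 28.6 in TH2 (log2 ratio 4.46 ± 0.56 SE, adjusted p = 1.88e-07), Klf4, a transcription factor, over 46.8 to 218 CPM in TFH2 and 3.25 to 20.2 in TH2 (log2 ratio 3.70 ± 0.48 SE, adjusted p = 1.87e-08), and Cd44, an adhesion receptor of activated T cells, over 265 to 425 CPM in TFH2 and 64.4 to 134 in TH2 (log2 ratio 1.87 ± 0.30 SE, adjusted p = 3.63e-06). Adora2a, a receptor for adenosine, ranged over 104 to 173 CPM in TFH2 and 16.8 to 43.3 in TH2 (log2 ratio 2.33 ± 0.39 SE, adjusted p = 9.45e-06). Bcl2, a gene that protects cells from apoptosis, had 46.0 and 37.4 CPM in CXCR5hi, 89.1 and 34.5 in CXCR5int, 113 and 77.3 in CXCR5lo, and 434, 365, 297 and 341 in TH2. Every TFH2 library was below TH2 (log2 ratio -2.44 ± 0.34 SE, adjusted p = 1.78e-07). Npc2, a lysosomal cholesterol carrier, ranged over 212 to 330.1 CPM in TFH2 and 799 to 1078 in TH2 (log2 ratio -1.75 ± 0.21 SE, adjusted p = 1.58e-09), Klf13 over 267 to 589.6 CPM in TFH2 and 951 to 1098 in TH2 (log2 ratio -1.20 ± 0.20 SE, adjusted p = 7.40e-06), and Igf1r, the receptor for insulin-like growth factor 1, over 0.344 to 27.7 CPM in TFH2 and 94.7 to 134 in TH2 (log2 ratio -2.83 ± 0.66 SE, adjusted p = 0.0031). Gas5, a noncoding host transcript of small nucleolar RNAs, ranged over 793 to 1329 CPM in TFH2 and 2017 to 2434 in TH2 and Eef2, a translation elongation factor, over 1499.6 to 3778 CPM in TFH2 and 3956 to 6268 in TH2, and both were lower (log2 ratio -1.07 ± 0.17 SE, adjusted p = 3.90e-06, and log2 ratio -1.01 ± 0.20 SE, adjusted p = 0.00149), Eef2 not passing against TH2 replicates 3 and 4 alone. P values come from edgeR's quasi-likelihood test.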
